A study of Homo sapiens with 4 samples.

Results

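The m6A map of YTHDF2-knockdown A549 cells held 27344 distinct peaks of 58401 in the series, the other 31057 being those of the control cells. They were taken as every distinct peak of the deposited list in which the IP library of the knockdown cells was compared with their input library, and were joined by gene identifier to the FPKM of the same input library, which is the number of fragments scaled to exon length and to the mapped fragments of the library. A549 is an established human lung adenocarcinoma line. shY2-2 denotes A549 cells carrying shRNA number 2 against YTHDF2 from a lentiviral vector, and shNC denotes A549 cells carrying the matching control vector, both kept as stable lines under puromycin selection. The 4 libraries of the series are, for each condition, 1 of fragmented poly(A) RNA (input) and 1 of the fragments that an m6A antibody bound (IP). With 1 library of each kind there is no replicate check and no test could be made between conditions. Intervals in brackets are 95% intervals, by Wilson's method for shares and from the motif counts for ratios of motif density. They cover the counting of genes, peaks or motifs only, and the number of reads behind an FPKM or a peak is unknown.

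N6-methyladenosine (m6A) is laid on nascent RNA by a nuclear complex built around METTL3 and METTL14, can be removed by FTO or ALKBH5, and is bound by reader proteins. YTHDF2 is the cytoplasmic reader best known for bringing the CCR4-NOT deadenylase to methylated mRNAs and so starting their decay. The mark is known from many tissues to sit in a short motif with GGAC at its core, near stop codons, in 3′ UTRs and in long internal exons, and the antibodies used to enrich it also bind the related m6Am at mRNA caps.

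Windows of 84 nt around a motif are shown for 4 peaks, because the description below turns on what a peak covers: the peak with the second highest fold enrichment of the map, a peak in each of a pair of nuclear lncRNAs, and the peak at the stop codon of AXIN1, the gene at the centre of the study. All are read 5′ to 3′ on the strand of the gene from GRCh38, and capitals mark GGAC, or GGACT where a T follows.
PUS1, coding sequence, chr12:131929924-131930007, + strand: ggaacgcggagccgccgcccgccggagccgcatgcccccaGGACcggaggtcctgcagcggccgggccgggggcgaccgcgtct
MALAT1, exon of a noncoding RNA, chr11:65503313-65503396, + strand: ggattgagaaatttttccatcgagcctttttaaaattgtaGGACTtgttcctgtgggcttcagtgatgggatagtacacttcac
NEAT1, exon of a noncoding RNA, chr11:65425569-65425652, + strand: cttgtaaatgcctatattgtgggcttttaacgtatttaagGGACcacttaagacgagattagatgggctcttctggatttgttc
AXIN1, coding sequence, chr16:288142-288225, - strand: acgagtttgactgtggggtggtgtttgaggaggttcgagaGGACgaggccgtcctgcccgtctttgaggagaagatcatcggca
The fold enrichment of the peak, the ratio of IP over input, was 245 for PUS1, 1.94 for MALAT1, 68.4 for NEAT1 and 1.38 for AXIN1. GGAC occurred 4.10 times per kb in the 1464 exonic nt of the PUS1 peak and 7.41 times per kb in the 270 nt of the AXIN1 peak. In the MALAT1 and NEAT1 peaks it occurred 2.22 and 1.71 times per kb. A peak was printed only if a GGAC with its whole window lay in coding sequence or in an exon of a noncoding RNA. Stronger peaks of MALAT1 (2.74) and AXIN1 (2.45) were passed over by this rule. The 4 peaks were thus picked for holding the motif and cannot show how its density relates to fold enrichment.

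The targeted gene was at an FPKM of 1.02 in the shY2-2 input library and 3.56 in the shNC input library. All 6 epithelial markers and all 10 markers of the aldo-keto reductase and NRF2 pathways known to be high in A549 cells were above an FPKM of 1, from 1.20 for EPCAM to 2044 for AKR1B10. Of the 4 alveolar type II markers listed in the table only ABCA3 passed (3.62), and the surfactant gene SFTPC was at 0.0670. MTAP and CDKN2A, which A549 cells are known to have lost, were at 0.194 and 0.0178. No leukocyte or endothelial marker reached an FPKM of 1, and of 4 fibroblast markers only COL1A1 did (1.64). The map is therefore that of an epithelial line without most alveolar type II markers.

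A peak covered a median of 270 nt of exon, and 25% were at or under 179 nt and 25% at or over 420 nt. The fold enrichment had a median of 2.26, with 1.67 and 3.66 at the 25th and 75th percentiles and 246 at the highest. The deposited list reaches a p-value of 0.049. Of all peaks, 14247 (52.1%) had a false discovery rate (FDR) of at most 0.05, 6252 (22.9%) a fold enrichment of at least 4, and 2482 (9.08%) both. A high fold enrichment did not go with a low FDR: 39.7% of the peaks with a fold enrichment of at least 4 had an FDR of at most 0.05, against the 52.1% of all peaks. The fold enrichment also clustered on a few values. Exactly 6.94 was given to 1376 peaks, in genes with a median FPKM of 1.20, and 1036 of these carried the same p-value of 0.042, with no FDR below 0.384. Another 716 peaks were at exactly 8.09, and 539 of these carried a p-value of 0.022. Counts of genes are therefore given for any peak, and for the main groups also for a peak past each threshold or both.

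The peaks named 11963 genes, of which 11737 are in the FPKM table of 28283 genes, and the 226 others carried 268 peaks. Among the 11737 genes, 4526 (38.6%) had 1 peak, 3179 (27.1%) had 2 and 4032 (34.4%) had 3 or more. Peaks of a gene can overlap each other: 3682 peaks (13.5%) fell together into 1697 merged regions of 2 to 10 peaks, and the whole map reduced to 25359 regions. The list gives no strand of its own for a peak, and the strand used here is that of the gene it was assigned to. Exons of that gene in GENCODE release 44 were overlapped by 25838 peaks (94.5%), and 3385 of these (12.4% of all peaks) also overlapped exons on the other strand. Another 829 peaks (3.03%) overlapped exons on the other strand only, and 623 (2.28%) only exons of other genes on the same strand. The gene named by a peak is therefore uncertain at overlapping loci, which is stated below for some named examples but not for all. On the other strand, the strongest PUS1 peak also overlaps PUS1-AS1 and the only TMSB10 peak overlaps TRABD2A. So do 4 of 7 EIF4B peaks with TNS2-AS1 and 3 of 10 ZNF410 peaks with FAM161B.

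Which genes carried a peak was examined first. At an FPKM of at least 1 stood 11614 genes, and 9293 of them carried a peak, which is 80.0% [79.3 to 80.7]. A peak with an FDR of at most 0.05 was found in 59.3% of them, a peak with a fold enrichment of at least 4 in 27.4%, and a peak past both thresholds in 15.0%. These shares cover all gene classes together. Genes that carried one had a median FPKM of 6.37 and a median spliced length of 3132 nt, against 2.72 and 2035 nt for the 2321 genes without one. A gene without a called peak is not shown to lack m6A.

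The share with a peak differed between gene classes. A peak was carried by 8808 of 10250 protein-coding genes (85.9% [85.3 to 86.6]), by 271 of 627 lncRNA genes (43.2% [39.4 to 47.1]), by 161 of 485 pseudogenes (33.2% [29.2 to 37.5]) and by 24 of 165 small RNA genes (14.5% [9.97 to 20.7]). The 4 intervals do not overlap. With an FDR of at most 0.05 the shares were 64.6%, 25.8%, 14.8% and 10.9%, and the intervals of pseudogenes and small RNA genes then overlap. FPKM and length moved with class: the medians were 5.94 and 3219 nt for protein-coding genes, 2.04 and 1210 nt for lncRNA genes, 2.95 and 690 nt for pseudogenes and 2.60 and 97 nt for small RNA genes, and their part in the class shares was not tested. In the shNC libraries, side by side and untested, the shares were 88.7%, 44.3%, 34.4% and 12.5%.

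Protein-coding genes, lncRNA genes and pseudogenes kept this order in the bins of FPKM between 2 and 10. At an FPKM of 2 to 5 a peak was carried by 81.6% of protein-coding genes, 49.8% of lncRNA genes and 34.2% of pseudogenes, and at 5 to 10 by 88.8%, 59.0% and 35.0%. Among lncRNA genes, those of 1000 nt or more carried a peak in 179 of 357 cases (50.1%) and shorter ones in 92 of 270 (34.1%). Those with a symbol that marks them as antisense to another gene (50 of 105, 47.6%) were close to the rest (221 of 522, 42.3%), and the intervals overlap. Within pseudogenes, processed copies without introns carried a peak in 64 of 244 cases (26.2%), and transcribed unprocessed copies in 61 of 128 (47.7%). Fragments of pseudogenes and of their parent genes are hard to tell apart, so both the FPKM and the peaks of this class are uncertain. Among small RNAs, peaks lay in 11 of 59 snoRNA genes and 4 of 32 miRNA genes, most of which sit inside longer host transcripts, and in none of 17 snRNA genes (interval up to 18.4%). Protein-coding genes with 1 exon, which undergo no splicing, carried a peak in 162 of 220 cases (73.6% [67.4 to 79.0]) against 86.2% [85.5 to 86.9] of those with more exons.

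The share of genes with a called peak rose with FPKM and then levelled off. Among protein-coding genes the share was 7.58% below an FPKM of 0.1, 36.2% at 0.1 to 0.5, 60.3% at 0.5 to 1, 72.6% at 1 to 2 and 93.2% at 10 to 20. Above that it stayed between 92.1% and 95.7%, so that even the 139 genes at 200 or more differed little from those at 10 to 20. Number of peaks per gene followed the same course, from 1.54 at an FPKM of 1 to 2 to 2.63 at 10 to 20 and 2.59 at 200 or more. Across the 10250 protein-coding genes, Spearman's rho was 0.26 between FPKM and the number of peaks, a description across genes that share the same libraries. Below an FPKM of 1, 2444 of 16669 genes (14.7%) carried a peak, and so did 82 of the 2649 genes listed at 0.

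Between an FPKM of 0.5 and 50 the fold enrichment of peaks and the share of peaks with an FDR of at most 0.05 moved in opposite directions. The median fold enrichment was 5.20 for peaks of genes at an FPKM of 0.1 to 0.5, 2.78 at 1 to 2 and 1.84 at 20 to 50. The share of peaks with an FDR of at most 0.05 was 26.3%, 28.5% and 75.6% in the same bins, with a low of 24.4% at 0.5 to 1, and 88.7% at 200 or more. Below an FPKM of 0.1 the pair of values was 3.47 and 42.0%, and at 200 or more the fold enrichment was 2.01, so that the opposite course did not extend to either end. Over the 8808 protein-coding genes with a peak, Spearman's rho between FPKM and the strongest fold enrichment of the gene was -0.15.

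**Figure D1:**
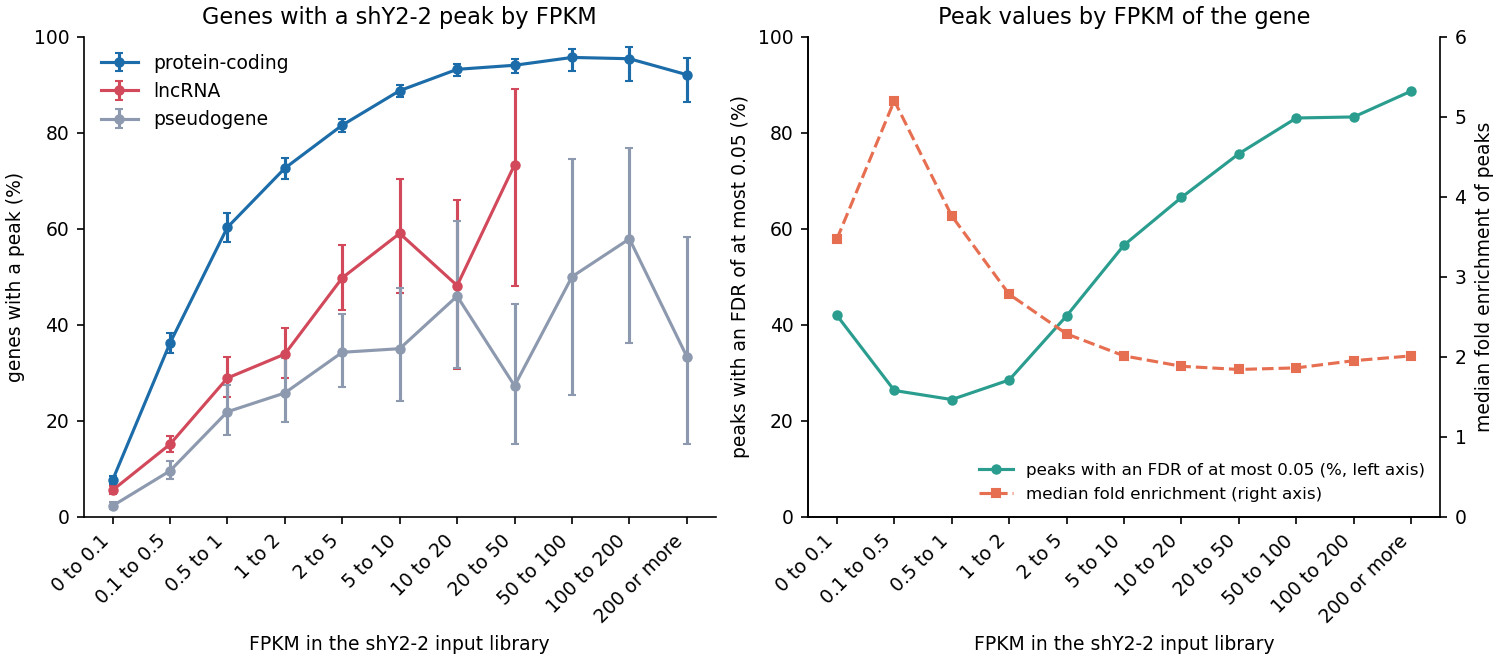
Left, share of genes with a shY2-2 peak (%) by FPKM in the shY2-2 input library, for protein-coding genes, lncRNA genes and pseudogenes, with 95% Wilson intervals as bars; bins with under 5 genes of a class are not drawn. Right, share of peaks with an FDR of at most 0.05 (%, left axis) and median fold enrichment of peaks (right axis) by the FPKM of their gene: the first goes from a low of 24.4% at an FPKM of 0.5 to 1 up to 88.7%, and the second from 5.20 at an FPKM of 0.1 to 0.5 down to between 1.84 and 2.01 above an FPKM of 5.

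The difference between short and long mRNAs was widest at low FPKM. At an FPKM of 1 to 2 a peak was carried by 32 of 68 protein-coding genes of up to 1000 nt (47.1% [35.7 to 58.8]) and by 339 of 422 genes of over 6000 nt (80.3% [76.3 to 83.8]). At an FPKM of 5 to 10 the same length classes were at 88.8% [81.0 to 93.6] and 89.8% [86.4 to 92.5]. At higher FPKM the longest class was again above the shortest, with 96.5% against 88.7% at 10 to 20 and 98.6% against 92.2% at 20 to 50. Over all FPKM values the share went from 83.1% in the shortest class to 87.2% in the longest, and Spearman's rho between FPKM and length was -0.28 over 10250 genes. The number of peaks per kb of transcript fell from 2.51 in the shortest class to 0.285 in the longest. Peaks per gene were 1.86 and 2.40 in these classes with all FPKM values pooled. Within FPKM bins the gap was wider at 1 to 2 (0.794 against 1.85) and at 10 to 20 (2.03 against 3.37). At 5 to 10 it was 2.255 against 2.642.

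**Figure D2:**
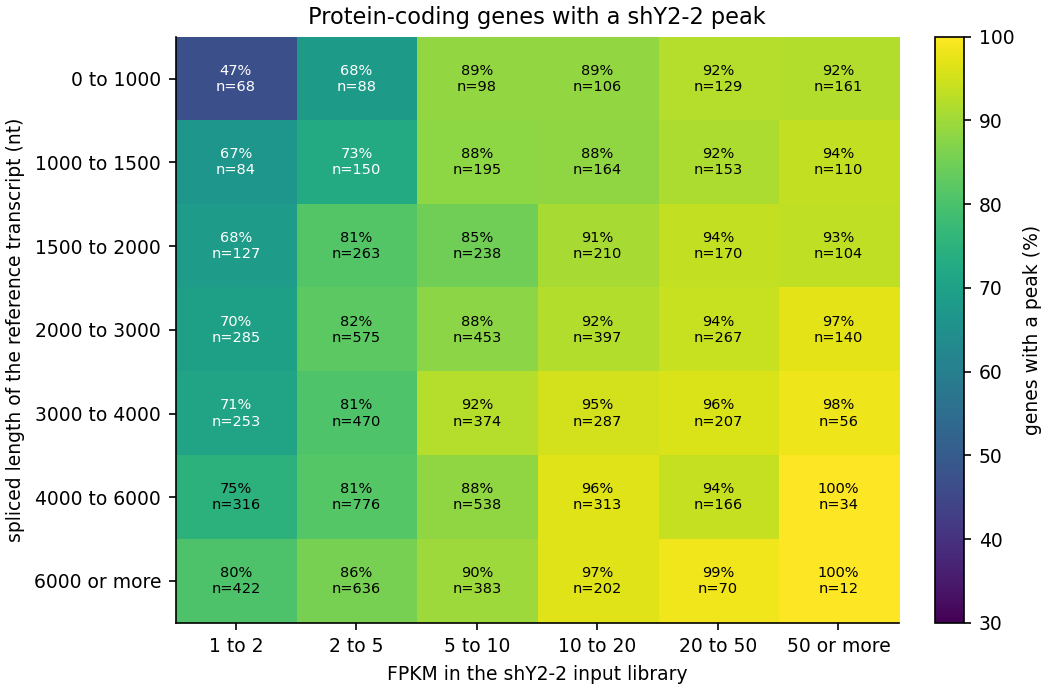
Share of protein-coding genes with a shY2-2 peak (colour and printed %, with the number of genes as n) by spliced length of the reference transcript (rows, nt) and FPKM in the shY2-2 input library (columns). The share spans 47.1% to 80.3% between the shortest and the longest genes at an FPKM of 1 to 2, 88.8% to 89.8% at 5 to 10, and 92.2% to 98.6% at 20 to 50.

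Gene functions were compared through 27 lists of genes, each counted over members with an FPKM of at least 1. Apart from the 2 lists of noncoding RNAs they are read against all protein-coding genes, 85.9% for any peak, 64.6% with the FDR, 29.6% with a fold enrichment of at least 4 and 16.3% with both. Housekeeping lists with high FPKM were at the top. All 37 proteasome subunits, 26 heat shock proteins and chaperonins, 30 tubulins, actins and cytoskeletal filaments, and 21 aldo-keto reductases and aldehyde dehydrogenases carried a peak. Their median FPKM lay between 19 and 110, where 93.2% to 95.7% of all protein-coding genes carried a peak, a range that the interval of each of these 4 lists includes.

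Cytosolic ribosomal proteins, among the most abundant mRNAs, had many and often strong peaks on short transcripts. Peaks lay in 81 of 83 of these genes (97.6% [91.6 to 99.3]), each of the 81 with an FDR of at most 0.05, at a median FPKM of 203. Peaks past both thresholds were found in 34 of 83 (41.0%), against 16.3% of protein-coding genes and 28 of the 222 other protein-coding genes at an FPKM of 100 or more (12.6%). The median strongest fold enrichment was 3.82, against 2.91 over all genes with a peak, below the 4.20 of initiation factors and the 4.50 of TGF-beta and BMP components. The genes carried 2.36 peaks per kb of transcript against 0.563 over all expressed genes, with a median length of 785 nt against 2913 nt. That density was no higher than the 2.51 per kb of all protein-coding genes of up to 1000 nt. GGAC was no denser in the peaks of ribosomal protein genes, at 3.17 per kb against 4.00 in the peaks of all expressed genes. Only 46.2% of their 266 peaks had the midpoint on the reference transcript, against 75.2% for all protein-coding genes, and introns of these genes hold many snoRNAs. Counting only midpoints on the transcript, 19 of 83 (22.9%) kept a peak past both thresholds, against 11.1% of protein-coding genes. Other lists were similar by that count, with 28.6% of immediate early regulators, 23.1% of TGF-beta and BMP components and 21.9% of Sm and LSm proteins.

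Single ribosomal protein genes showed the range. RPL41 had a single peak with a fold enrichment of 4.13 at an FPKM of 1834. RPL13A had 4 peaks of 1.24 to 4.65 at an FPKM of 1742, and 3 of them overlapped snoRNA genes or another transcript within the locus. RPS15A and RPL31 had 8 peaks each, the most of the list, at FPKM values of 112 and 72.5, and 2 of those of RPL31 lay off its own exons. RPL32 (161) and RPS28 (11.7) had none. The 78 mitochondrial ribosomal proteins, also components of a ribosome but encoded in separate genes, were at 70 of 78 (89.7%), with 16 past both thresholds (20.5%) and MRPL12 (221) the most abundant without a peak of its own. A pair of peaks assigned to SLC25A10 and an unnamed gene does lie on MRPL12 exons.

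Translation initiation factors carried a peak in 50 of 52 cases, and in 26 (50.0% [36.9 to 63.1]) a peak had a fold enrichment of at least 4, against the 29.6% of protein-coding genes, and 16 (30.8%) were past both thresholds. Of their peaks with a fold enrichment of at least 4, 16 had the midpoint on the reference transcript and 20 off it. Counting only midpoints on it, 8 of 52 (15.4%) kept a peak past both thresholds, against 11.1% of protein-coding genes. EIF4A1, the helicase that unwinds 5′ UTRs, had 9 peaks in 3 merged regions, and EIF4B, its cofactor, had 7 in 4. EIF2S2, a subunit of the factor that delivers the initiator tRNA, had none at an FPKM of 85.2. TGF-beta and BMP pathway components also reached 13 of 26 for a fold enrichment of at least 4, with 7 (26.9%) past both. SMAD6, an inhibitor of BMP signals, had 6 peaks of up to 10.2-fold at an FPKM of 11.1. The receptor-regulated SMAD2 had 6 of up to 17.3-fold at an FPKM of 1.09. In each of these genes 3 of the 6 peaks had an FDR of at most 0.05. Their strongest shNC peaks were at 14.9 and 2.08. The ubiquitin ligase SMURF2 had no shY2-2 peak at an FPKM of 6.73 but had 4 shNC peaks, given side by side and untested.

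The lists of Wnt signalling, m6A enzymes and mRNA decay bear on the question of the study. Wnt pathway components carried a peak in 42 of 48 cases (87.5% [75.3 to 94.1]), and 4 of 48 (8.33%) had a peak past both thresholds. Casein kinase CSNK1A1, which primes beta-catenin for degradation, had 9 peaks of 1.23 to 3.47, of which 7 lay on its own exons, and PYGO2, a nuclear cofactor of beta-catenin, had 5 of 1.17 to 2.05. DVL2 (8.84) and PORCN (4.34), which act at the receptor and in ligand secretion, had none. In the writer complex 7 of 8 genes carried a peak. The catalytic subunit METTL3 led with 8 peaks of 1.16 to 6.94, of which 4 had an FDR of at most 0.05. WTAP (9.38), its adaptor, had none of its own, although 1 peak named for ACAT2 lies on the exons of WTAP. Readers and erasers were at 11 of 12, IGF2BP2 (7.59) being the one without, and the CCR4-NOT and deadenylation genes at 16 of 17, PAN3 (2.81) being the one without. WTAP and PAN3 had 1 shNC peak each and IGF2BP2 had none, given side by side and untested.

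Regulators at low FPKM were a little under the background. Developmental transcription factors carried a peak in 58 of 73 cases (79.5% [68.8 to 87.1]) and one with an FDR of at most 0.05 in 31 (42.5%), at a median FPKM of 3.43. ZNF genes were at 189 of 228 (82.9% [77.5 to 87.2]) and 115 (50.4%), at a median FPKM of 2.37, ZNF593 (33.3) being the most abundant without a peak. ZNF410 and ZNF623 led with 10 peaks in 5 merged regions each. A list of protocadherin, LRRC, KCTD and KLHL genes was at 49 of 64 (76.6% [64.9 to 85.2]), with PCDH9, a protocadherin, at 10 peaks. The interval of each of these 3 lists includes the 81.6% of all protein-coding genes at an FPKM of 2 to 5.

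Among immediate early and inducible regulators 26 of 28 carried a peak. DUSP4, a MAP kinase phosphatase, led with 7 peaks of 1.29 to 9.25, of which 4 had an FDR of at most 0.05. JUNB, a partner of FOS in AP-1, had none at an FPKM of 30.2, nor did ZFP36 (6.48), which destabilises AU-rich mRNAs. Solute carriers (125 of 147, 85.0%), chromatin modifiers (66 of 72, 91.7%), cell cycle genes (38 of 40, 95.0%) and matrix and integrin genes (26 of 31, 83.9%) lay on either side of the 85.9% of protein-coding genes, which the interval of each includes. CCNA2, the S-phase cyclin, had no peak at an FPKM of 34.3, nor did the G1 kinase CDK6 at 4.53, while its relative CDK4 had 7 peaks, 1 of them off its own exons. SMARCC1 (15.8), a core subunit of the SWI/SNF remodeller, and ITGB4, the laminin-binding integrin chain of hemidesmosomes, had none. Nuclear respiratory chain subunits were at 70 of 76 (92.1%), NDUFB7 (127) and NDUFA1 (81.9) being the most abundant without, and spliceosomal Sm and LSm proteins were at 31 of 32. Glycolytic enzymes were at 15 of 17, GAPDH and ALDOC, an aldolase, being those without, and TPI1 and PKM led with 5 peaks each.

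The lowest shares were those of the clustered histones and of the mitochondrial genome. Clustered histones, most of whose mRNAs are known to end in a stem-loop in place of a poly(A) tail, carried a peak in 10 of 25 cases (interval 23.4% to 59.3%), always 1 per gene, at a median FPKM of 1.72 and a median length of 486 nt. All protein-coding genes of up to 1000 nt at an FPKM of 1 to 2 were at 47.1% [35.7 to 58.8] and the share of the histones lies within that interval. HIST1H2BK (43.6) and HIST1H1C (14.3) had peaks of 1.92 and 2.70, and HIST1H4J (5.02) had none. GGAC was least dense in histone peaks, at 1.76 per kb. The 13 proteins of the mitochondrial genome, transcribed outside the nucleus, had a median FPKM of 405, and 8 carried a peak (61.5% [35.5 to 82.3]). MT-CO1, the most abundant of them at 2699, had none, MT-CYB had 3 of 1.14 to 1.75, and MT-CO2 had a single peak of 3.35, while 1 of the 13 had a peak with a fold enrichment of at least 4. Of all protein-coding genes at an FPKM of 200 or more, 92.1% carried a peak, which lies above this interval.

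Noncoding hosts and long noncoding RNAs differed. Small nucleolar RNA host genes, whose spliced RNAs are mostly by-products of snoRNA release, carried a peak in 14 of 22 cases (63.6% [43.0 to 80.3]), with SNHG16 at 7 peaks and SNHG19 (33.6) with none of its own, although 1 peak named for SNORD60 lies on its exons. A list of known lncRNAs carried one in 13 of 13, at a median FPKM of 3.77, against 43.2% of all lncRNA genes; this list was made of well-studied RNAs and is no sample of the class.

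**Figure D3:**
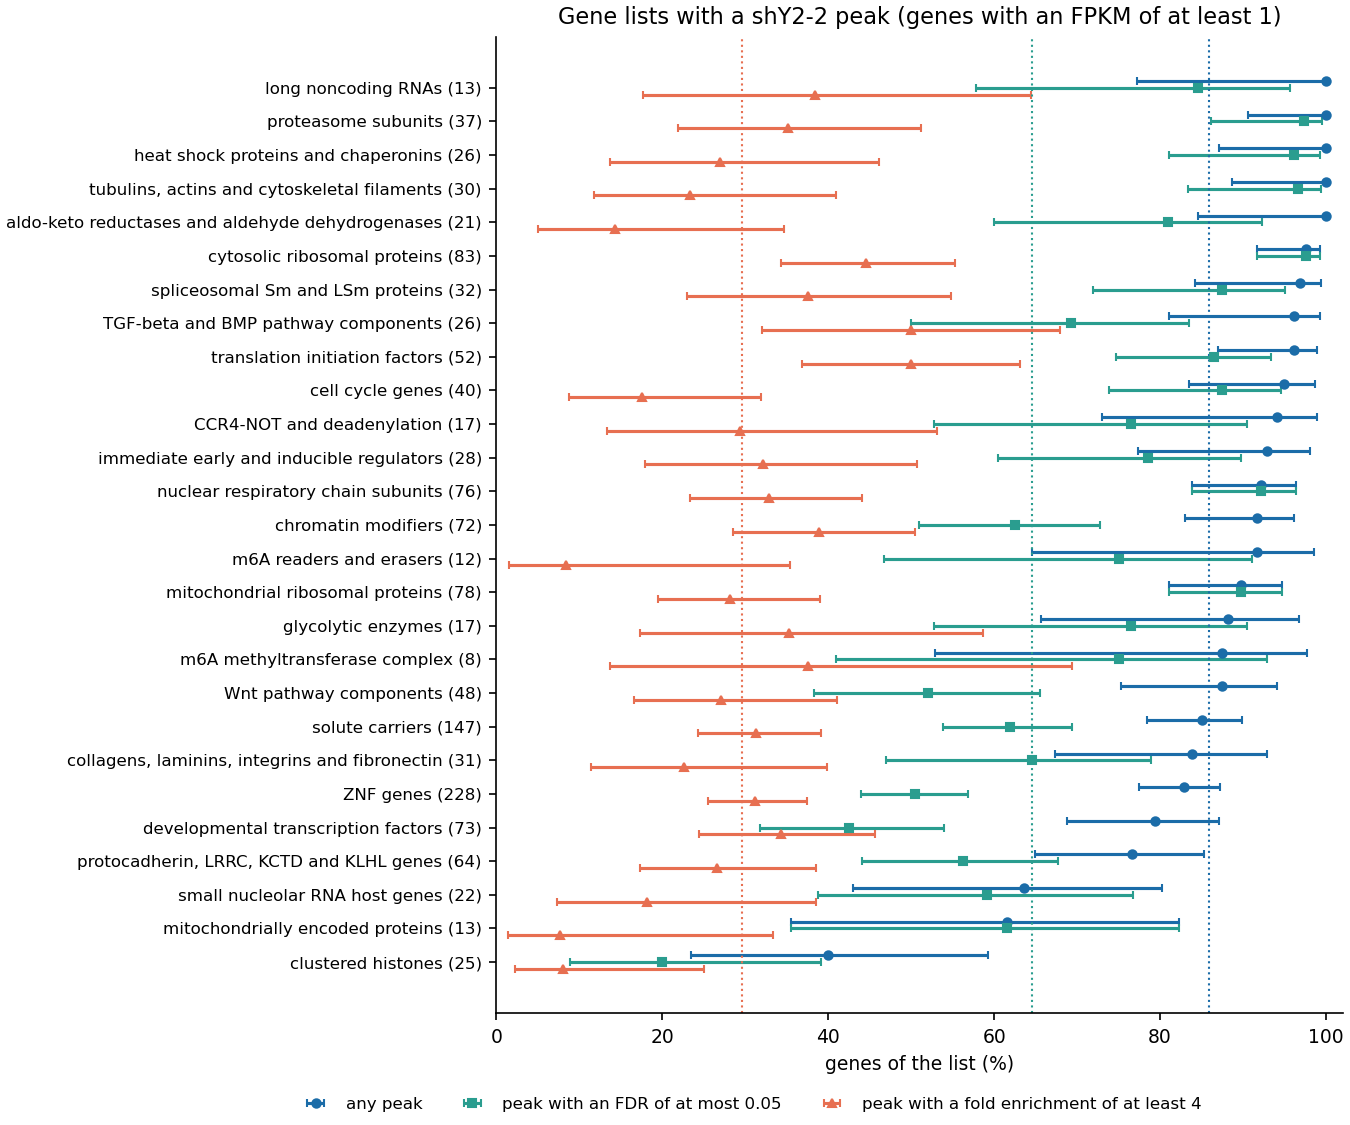
Share of genes (%) of each of 27 lists with any shY2-2 peak (circles), with a peak with an FDR of at most 0.05 (squares) and with a peak with a fold enrichment of at least 4 (triangles), over genes with an FPKM of at least 1, whose number stands in brackets. Bars are 95% Wilson intervals and dotted lines the shares over all protein-coding genes, 85.9%, 64.6% and 29.6%; clustered histones lie lowest for any peak, with 10 of 25 genes.

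Functional terms attached to the genes in the deposited table were compared at a matched FPKM of 10 to 100, where 3033 of 3326 genes carried a peak (91.2%). All 126 KEGG pathways and 483 GO terms with at least 20 such genes were at 83.3% or more, and 11 pathways and 62 terms were at 100%. The lowest pathway was AMPK signaling with 28 of 33 genes (84.8% [69.1 to 93.3]), where ADIPOR1, ADIPOR2, CCNA2, GYS1 and RAB2A had no peak, followed by ErbB signaling with 23 of 27. DNA replication was at 18 of 21, with POLD4, PRIM1 and RNASEH2A lacking one. Among the complete pathways were the proteasome (30 of 30), p53 signaling (24 of 24), cardiac muscle contraction (25 of 25), which holds respiratory chain subunits, and transcriptional misregulation in cancers (31 of 31). The lowest GO terms were platelet degranulation, cell-cell signaling and azurophil granule membrane, at 20 of 24 each, and the highest included extracellular matrix (56 of 56) and unfolded protein binding (36 of 36). The upper interval bound lay below 91.2% for 0 of the 126 pathways and 0 of the 483 terms, and the lower bound lay above it for 0 pathways and 56 terms. Genes without any term are part of the 91.2%, and terms share genes. Noncoding genes are part of it too. Protein-coding genes alone were at 93.2% at an FPKM of 10 to 20, 94.1% at 20 to 50 and 95.7% at 50 to 100. The part of gene class in the 56 terms was not tested.

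The genes with the most peaks mostly had overlapping transcripts. KLC1, a kinesin light chain, had 19 peaks in 15 merged regions, but only 11 lay on its own exons, and others lay on exons of XRCC3 on the other strand or of COA8. PRRC2B had 14 in 7 regions, its strongest a 3.69-fold peak in the 3′ UTR, and 11 of the 14 also overlapped an unnamed gene on the other strand. UGT1A6, a glucuronosyltransferase, had 13 in 4 regions, 12 of them over exons that overlap other UGT1A genes, at an FPKM of 0.710. MTCL1, a microtubule regulator, had 12 peaks in 11 regions, of which 11 lay on its own exons, and C16orf72 had 12 in 9. After merging, KLC1 and MTCL1 still had the most regions of these 5 genes.

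Outside the mitochondrial genome and the ribosomal proteins, the most abundant mRNAs without a peak were GAPDH, a glycolytic enzyme, at an FPKM of 3461, KRT81, a hair keratin, at 1174, SRXN1, a sulfiredoxin under NRF2 control, at 334, the RNA-binding protein PCBP1 at 269 and the cytokine MIF at 253. On the exons of SRXN1, however, lie 6 peaks named for the overlapping AL121758.1. GAPDH, KRT81 and SRXN1 had no shNC peak either, and PCBP1 and MIF had 1 each. FTL, the ferritin light chain and the gene with the highest FPKM among those with a peak, at 11817, had 1 peak, with a fold enrichment of 1.65, at its stop codon. TMSB10, an actin-binding thymosin, at 2804, had 1 of 3.32 over its stop codon, and AKR1B10, at 2044, had 3 of 1.19 to 2.12. Very high FPKM thus went with a peak in some genes and with none in others.

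The strongest peaks belonged to DOHH at 246-fold, PUS1 at 245-fold, SYNCRIP at 241-fold, CARD8 at 238-fold and OAZ2 at 182-fold. DOHH, which completes hypusine on the factor EIF5A, had only this 1 peak, in the 3′ UTR within 400 nt of the stop codon, at an FPKM of 7.74. PUS1, a pseudouridine synthase, had it centred within 100 nt of the start codon. SYNCRIP, an RNA-binding protein, had it in 2 exon blocks at the 5′ end of the gene, off the reference transcript, and OAZ2, an inhibitor of polyamine synthesis, had it in the 3′ UTR. The strongest CARD8 peak covered no CARD8 exon and lay on exons of ZSWIM9 on the other strand, as did its 22.4-fold neighbour. In the shNC list the strongest peaks of the same genes were at 87.0, 88.7, 82.4, 82.4 and 12.2, each from 1 pair of libraries and with no replicate.

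Among lncRNAs, MALAT1 had 10 peaks in 6 regions with fold enrichments of 1.26 to 2.74, all of which also overlapped its antisense partner TALAM1. NEAT1, the scaffold of paraspeckles, had 9 in 5 regions, with 32.4-fold at its 5′ end and 68.4-fold in the peak whose motif is printed above, and its 2 most distal peaks were at 8.09 and 6.94 with FDR values of 0.603 and 0.979. C17orf51 had 8 peaks, 1 with an FDR of at most 0.05, and SNHG16 had 7. The most abundant lncRNA genes without a peak were FP236383.2, FP236383.3, FP671120.3 and FP671120.4, at 131 to 321, which are each 923 nt long on chromosome 21, so that their values are uncertain if the loci are copies of each other, and AC008738.7 at 43.7, on whose exon a pair of peaks named for LRP3 lies.

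Of the genes measured in the study, AXIN1, the scaffold of the beta-catenin destruction complex, had 4 peaks at an FPKM of 7.77. They lay across the start codon (2.45-fold, FDR 7.08e-06), in the second exon (1.30-fold, FDR 0.105), at the stop codon (1.38-fold, FDR 0.0151) and in the 3′ UTR (1.55-fold, FDR 0.158). Thus 2 of the 4 passed the FDR and none was strong. CTNNB1, encoding beta-catenin, had 3 of 1.46 to 1.86 at an FPKM of 26.9. MYC had 1 peak of 3.20-fold over its stop codon (FDR 1e-110, FPKM 15.7). JUN had 3 of 2.31 to 5.78, the strongest of them with an FDR of 0.0646, at an FPKM of 5.18. MMP7, a matrix protease, had 3 of 1.73 to 2.37, and CD44, the hyaluronan receptor, 3 of 1.26 to 1.67. FN1, encoding fibronectin, had 2, of 1.77-fold (FDR 0.00166) and 3.85-fold (FDR 0.257), the latter centred off the reference transcript. MMP2, another matrix protease, had none at an FPKM of 1.41. YTHDF2 itself, at an FPKM of 1.02, had 3 peaks, with 1.70-fold and 3.31-fold in the long coding exon 4 and 3.62-fold in the 3′ UTR.

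Where on the mRNA the peaks lay was measured from the midpoint of the peak on the reference transcript. Of the 22402 peaks of expressed protein-coding genes, 16851 (75.2%) had a midpoint there. Over the whole map the peaks off the reference transcript had a higher median fold enrichment (2.78 against 2.10), and 34.5% of them against 18.4% reached 4, so positions describe the lower-ratio part of the map. Density was highest within 100 nt of the stop codon, at 1.14 midpoints per kb, followed by 0.784 in the next 300 nt of 3′ UTR, 0.569 at 401 to 1000 nt after the stop codon and 0.352 beyond. In the coding sequence it was 0.569 in the last exon and 0.269 elsewhere. Within 100 nt of the start codon it was 0.455 and in the first 100 nt of the transcript 0.407. The stop codon was thus the densest place, with a decline into the 3′ UTR, and the bulk of the coding sequence the sparsest.

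Peaks with a high fold enrichment were placed differently, although over the whole map only 39.7% of those at 4 or more had an FDR of at most 0.05. No density was computed for peaks past both thresholds. Peaks with a fold enrichment of at least 4 were densest in the first 100 nt of the transcript, at 0.113 per kb, and in the rest of the 5′ UTR, at 0.104. The last 100 nt of the transcript followed with 0.0937, and the 3′ UTR over 1000 nt after the stop codon with 0.0827. The density was 0.0683 at the stop codon and 0.0160 in coding sequence away from both codons and the last exon. Peaks with an FDR of at most 0.05 kept the stop codon as their densest place, at 0.848 per kb against 0.219 in the first 100 nt. The antibody does not separate m6A from m6Am at the cap, and no value here separates them. In the shNC map, side by side and untested, the density was 1.27 at the stop codon, 0.408 in coding sequence before the last exon and 0.254 in the last 100 nt of the transcript, where shY2-2 had 0.387.

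Lists differed in where their peaks lay. At the 5′ end, up to 100 nt past the start codon, lay 18.7% of the placed peaks of cytosolic ribosomal proteins and 15.6% of those of respiratory chain subunits, against 7.51% over all protein-coding genes. Developmental transcription factors (61.2% of 103), immediate early regulators (60.7% of 56) and solute carriers (57.9% of 235) had most of theirs in the 3′ UTR past the stop codon window, against 47.7% overall. Chromatin modifiers, with the longest transcripts (median 7308 nt), had 45.3% of 139 in the coding sequence, against 29.1%. Cytoskeletal genes (28.9% of 45) and aldo-keto reductases and aldehyde dehydrogenases (26.4% of 53) had the largest shares at the stop codon, against 13.3% overall. The lengths of the coding sequence and UTRs differ between lists, and their part in these shares was not tested.

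By exon, 11397 of the 16851 midpoints (67.6% [66.9 to 68.3]) lay in the last exon, at 0.526 per kb, against 0.281 per kb in internal exons and 0.379 in first exons. Internal coding exons were not alike. Those of up to 100 nt held 0.281 midpoints per kb, those of 101 to 200 nt 0.240 and those of 301 to 400 nt 0.194, whereas those of 401 to 800 nt held 0.494 and those of 801 to 1600 nt 0.475. Above 1600 nt the density was 0.270 per kb, no higher than in the shortest exons, although 109 of the 211 exons (51.7%) contained a midpoint. Exons over 400 nt were 1.65 times as dense as those of up to 200 nt (731 against 2394 midpoints, 95% interval 1.52 to 1.79 for counting only). With a fold enrichment of at least 4 the ratio was 1.22, from 31 against 137 midpoints, and its interval of 0.827 to 1.80 includes 1.

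**Figure D4:**
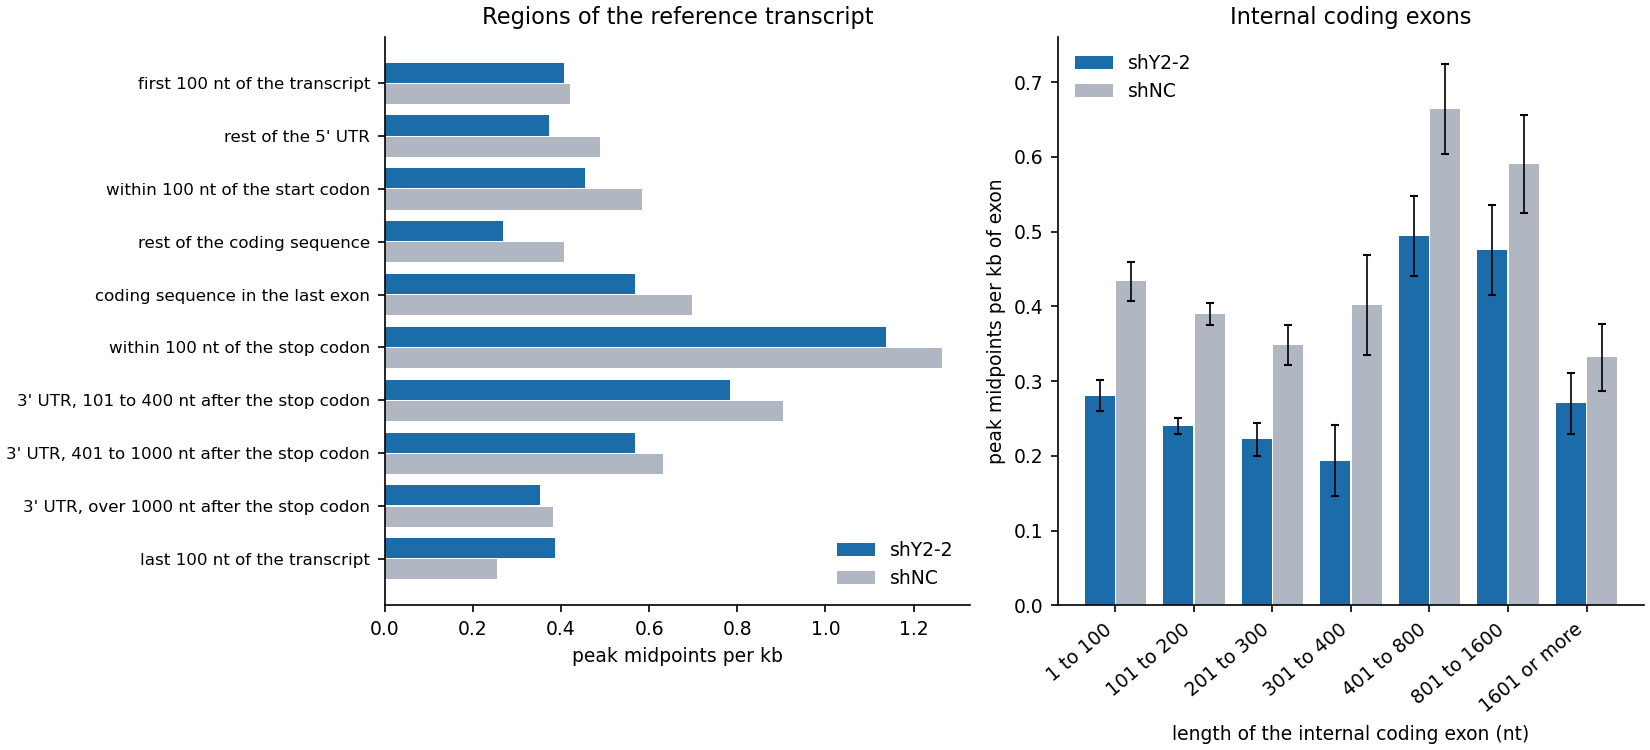
Left, peak midpoints per kb in regions of the reference transcript, and right, per kb of internal coding exon by exon length (nt), in shY2-2 and shNC, with 95% counting intervals on the right only. In shY2-2 the density was 1.14 per kb within 100 nt of the stop codon, 0.269 in the rest of the coding sequence, and 0.494 in internal exons of 401 to 800 nt against 0.240 in those of 101 to 200 nt.

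The motif was counted last, as a readout the peak calling did not use. The letters searched were GGAC and GGACT on the strand of the gene, GGACT being part of the GGAC counts, and AGTCC as the reverse complement. GGACT occurred 1.20 times per kb within 100 nt of a midpoint on the transcript and 0.960 times per kb at 500 to 1000 nt from it, a ratio of 1.25 (4615 against 12984 motifs, 95% interval 1.21 to 1.29 for counting only). The reverse complement had a ratio of 0.957 [0.919 to 0.996]. Peaks with an FDR of at most 0.05 and a fold enrichment of at least 2.5 had a ratio of 1.33 [1.24 to 1.43], and those with an FDR over 0.05 one of 1.17 [1.11 to 1.23]. Among peaks with a midpoint on the transcript, the motif was therefore denser at the centre and its reverse complement was not. This held also for the 9014 of them that missed the FDR. Peaks centred off the reference transcript were not examined. The shNC map had 1.23 [1.19 to 1.27].

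**Figure D5:**
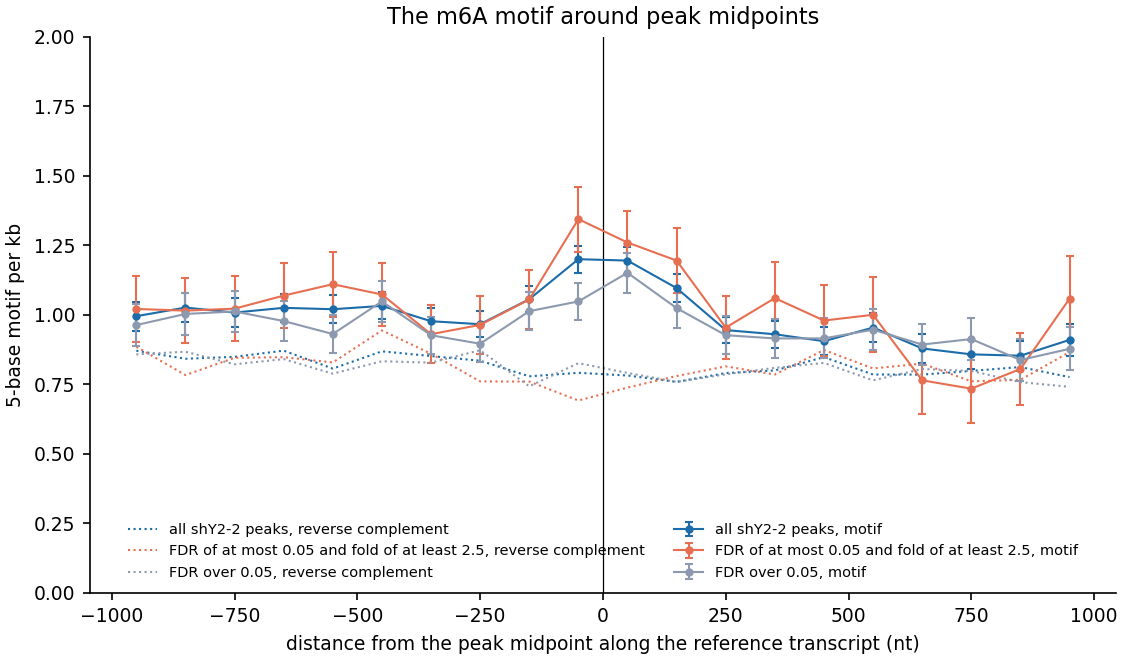
Density of the 5-base motif (per kb, solid) and of its reverse complement (dotted) in 100-nt bins by distance from the peak midpoint along the reference transcript (nt), for all shY2-2 peaks, for those with an FDR of at most 0.05 and a fold enrichment of at least 2.5, and for those with an FDR over 0.05; bars are 95% counting intervals. The solid lines rise at the midpoint, with 1.20 per kb within 100 nt for all peaks, and the dotted lines do not.

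The motif did not become denser with the fold enrichment. With the peaks cut into 5 equal groups by fold enrichment, GGAC was at 4.36 per kb in the lowest group, then at 4.14, 4.12 and 3.94, and at 3.60 in the highest, a ratio of 0.826 [0.798 to 0.855]. The share of peaks with at least 1 GGAC went up over the same groups, from 50.9% to 67.6%, as the median length rose from 180 to 389 nt. FPKM fell at the same time, from a median of 12.1 to 2.22. Within genes at an FPKM of 10 to 100 the groups had 4.34, 4.16, 3.73, 4.03 and 3.77 per kb, and among peaks with an FDR of at most 0.05 the ratio was 0.898 [0.861 to 0.936]. Position moved with motif density as well: peaks centred in the 5′ UTR outside its first 100 nt held 5.94 GGAC per kb, those of the coding sequence outside the last exon 4.86 and those over 1000 nt into the 3′ UTR 2.75, and its part in the trend was not tested.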

How the data were processed

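The authors aligned the reads to GRCh38 with HISAT2 and computed the deposited FPKM of each gene from the input reads with StringTie. Peaks were called by the authors with exomePeak on IP against input and assigned to genes with ChIPseeker; fastp and HOMER are also in the submitters' processing notes, and versions are not given in the sources used here. The p-value of each peak, the log10 score of its p-value and FDR, and its fold enrichment (a ratio, not logged) are used as deposited by the authors. Per the file headers the peak lists hold no count of reads, so depth is unknown.

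Repeated rows (11 of 27355) were dropped. Peaks were joined to FPKM by gene identifier, and genes with an FPKM of at least 1 were called expressed. Of 28283 genes, 27939 were matched to GENCODE release 44 by identifier and 20 by symbol; 324 were not matched. Midpoints were placed on the reference transcript of that release, which may differ from the authors' annotation, with windows of 100 nt at start and stop codons. Gene lists were restricted to protein-coding genes, or to lncRNA genes for the lncRNA and host gene lists. No test was made, since each group has 1 library of each kind; shares carry 95% Wilson intervals. No per-sample column was left without a sample.

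Genes and lists were chosen with earlier results of these data known. Named are the 5 genes with the most peaks, the 5 protein-coding genes with the highest FPKM and no peak (mitochondrial genome and ribosomal proteins apart), the 5 with the strongest peak at an FDR of at most 0.001, the 5 lncRNA genes with the most peaks and the 5 abundant ones without, the 5 genes with the highest FPKM and a peak (mitochondrial genome apart), genes the study measured, and of each list up to 4 members, 2 with the most peaks and 2 abundant ones without. Of functional terms, the 5 highest and 5 lowest of each kind are named by the rule. Genes of the X inactivation centre were not named, and single genes given as examples of overlap were picked after their values were seen. In all 44 values were recomputed with other thresholds, FPKM limits, gene assignment, location and motif rules, 10 of them chosen after seeing the data. Transcript positions, peak midpoints, the merging of exon intervals and the Wilson intervals were tested on simulated data. The overlap of peaks with genes, the merging of peaks into regions, the densities and the motif counts were not. Software was pysam 0.24.0, pandas 2.3.3, NumPy 2.4.6, matplotlib 3.10.9 and SciPy 1.17.1 under Python 3.11.15.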

Additional observations from a re-analysis of the deposited data

How the results depend on the processing

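Of 44 values recomputed under alternatives, 17 stayed within their interval and 27 moved. A reversal was defined only for the exon ratio and the GGAC ratio, and neither reversed. Keeping only peaks on exons of their own gene could not change the exon ratio or the last exon share. A midpoint on the reference transcript already lies on such an exon. With an FDR of at most 0.05 the share with a peak was 59.3% for all expressed genes, 64.6% for protein-coding, 25.8% for lncRNA and 50.4% for ZNF genes, the internal exon ratio was 1.43 and the GGAC ratio 0.898. With a fold enrichment of at least 4 the shares were 27.4% for all, 29.6% for protein-coding, 14.8% for lncRNA, 31.1% for ZNF and 44.6% for ribosomal protein genes and 20.9% at an FPKM of 100 or more, the exon ratio was 1.22 and the last exon held 74.8% of midpoints. At an FPKM of at least 5 the shares were 89.0% for all, 91.8% for protein-coding and 57.3% for lncRNA genes, and without an FPKM limit 41.5%, 63.2% and 14.6%. Assigning peaks by overlap with reference exons gave 81.5%, 87.3% and 49.9%, and keeping only peaks on exons of their own gene gave 79.0% for all genes. The exon ratio was 3.55 when any overlap counted, which favours long exons by construction. The motif ratio was 0.874 for GGACT and 0.900 for the central 100 nt of peaks with an FDR of at most 0.05. The order of protein-coding over lncRNA genes held in each of these settings, and the cause of the other moves was not tested. No paired analysis was possible because each condition has 1 library of each kind. Depth limits every peak, and the files do not give it.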
